A study of Mus musculus with 12 samples.

Results

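Chga, Chgb, Scg2, Scg3, Vgf, Scg5, Pcsk1n, Pcsk1, Pcsk2 and Cpe encode the granins of secretory granules and the enzymes and helper proteins that cut prohormones inside those granules. The 10 genes were taken by name, by a list that sets no threshold on measured values, from a table of 30399 mouse genes. RNA sequencing of poly-A RNA was available for 12 samples, 5 labelled normal lung and 7 labelled tumor. The series title places the tumors in lung cancer models made by nonviral CRISPR/Cas9 mutagenesis, that is, by cutting genes with a guided nuclease delivered without a virus. The labels used here give no edited gene, strain, age, sex or treatment for any sample, so whether the groups also differ in these is not known here. The titles of tumors 3 and 4 share the number 159 and those of tumors 5, 6 and 7 share 201, whereas tumor 1 carries 153 and tumor 2 carries 156. The meaning of that number is not stated, the title of tumors 1 and 7 holds the Spanish word for trachea and that of tumors 3 to 6 the word for lung, and p-values measure only the spread between these samples.

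Endocrine cells and neurons store peptide hormones in dense-core granules, and granins are the acidic proteins that condense with the hormones in the trans-Golgi network and fill those granules. Within the granule, the prohormone convertases encoded by Pcsk1 and Pcsk2 cut precursors after pairs of basic residues and carboxypeptidase E, encoded by Cpe, removes the basic residues left at the cut ends. Scg5 encodes 7B2, the chaperone that Pcsk2 needs to mature, and Pcsk1n encodes proSAAS, an inhibitor of the Pcsk1 product. In lung this machinery is best known from the rare pulmonary neuroendocrine cells and from neuroendocrine tumors, although Cpe is made in many tissues. Chromogranin A, the product of Chga, is a routine stain for such tumors.

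Promoter sequences are shown for the members whose bases just upstream of the gene start hold TGACGT. It is part of the cAMP response element to which CREB family factors are known to bind. Whether this sequence has a part in the levels given below was not tested. RefSeq windows of the GRCm38.p6 build were found for 8 of the 10 members, and none was found for Vgf or Cpe. On either strand of the 250 bases before the gene start, the full element TGACGTCA occurred in 3 of the 8 (Chgb, Scg2 and Pcsk1), against 1.55% of 32841 RefSeq windows of that length. Its shorter form TGACGT, which every TGACGTCA also contains, occurred in 5 of the 8 (Chga and Scg5 in addition), against 6.47% of all windows. The last 120 bases before the start are printed 5′ to 3′ on the coding strand, with TGACGT or TGACGTCA in capitals, for Chga at chr12:102554821-102554940 (+), Chgb at chr2:132781522-132781641 (+), Scg2 at chr1:79440027-79440146 (-) and Pcsk1 at chr13:75089737-75089856 (+).
Chga: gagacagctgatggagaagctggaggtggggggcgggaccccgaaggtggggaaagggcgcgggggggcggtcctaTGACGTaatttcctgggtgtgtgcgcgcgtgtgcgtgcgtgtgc
Chgb: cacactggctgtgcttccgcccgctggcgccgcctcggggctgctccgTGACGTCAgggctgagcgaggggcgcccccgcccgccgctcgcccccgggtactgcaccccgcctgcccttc
Scg2: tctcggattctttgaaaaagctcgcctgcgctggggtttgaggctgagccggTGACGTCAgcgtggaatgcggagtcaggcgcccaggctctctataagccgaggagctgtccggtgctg
Pcsk1: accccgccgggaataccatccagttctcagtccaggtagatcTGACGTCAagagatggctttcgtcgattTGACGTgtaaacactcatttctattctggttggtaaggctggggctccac
The element began 44 bases before the start in Chga, 72 in Chgb, 68 in Scg2 and 78 in Pcsk1, where an additional TGACGT began 50 bases before it, and the match in Scg5 lay farther out, at 175 bases. Of the other motifs searched in the same way, the GC box GGGCGG was found in 5 of the 8 members and 32.7% of all windows, the E-box CAGCTG in 2 of 8 and 13.0%, and the TATA box TATAAA in 0 of 8 and 12.4%. TCAGCACC, the start of the element bound by the repressor REST, was found in 0 of 8 members and 1.32% of all windows. These are matches of letters in 1 window per gene and carry no measurement of binding.

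Between 11126432 and 17032234 reads per normal lung and between 13093843 and 24217633 per tumor had been assigned to genes. Values are normalized read counts, that is, reads divided by a size factor per sample and not by gene length, and 3 reads correspond to at most 4.85 in normal lung and 3.57 in tumors. The labelled tissues were checked against marker genes. The 8 lung epithelial markers summed to 284415 to 509724 in normal lung and 481 to 3216 in tumors, and all 8 were lower in tumors. All 7 neuroendocrine markers, among them Insm1 and Syp, were higher, with sums of 235 to 455 in normal lung and 19963 to 69482 in tumors. Lower in tumors as well were 5 of 5 endothelial markers (sums of 49550 to 62276 and 705 to 4395), 6 of 6 leukocyte markers (81913 to 161695 and 145.7 to 9760) and 3 of 3 mesothelial markers (774 to 2290 and 6.94 to 818). Of the 6 fibroblast and smooth muscle markers 3 were lower and 3 not called (11441 to 23226 and 2987 to 26632), and the 4 heart markers were not called (76.2 to 3209 and 114 to 32144). Tumor 7 had the lowest neuroendocrine sum and the highest of the tumor sums for leukocytes (others at most 2449), for endothelium (others at most 2585), for mesothelium (others at most 299), for fibroblasts and smooth muscle (others at most 15358) and for heart muscle (others at most 2040). Of 6 peripheral neuron and glia markers tested, 3 (Prph, Th and S100b) were higher in tumors, 1 was lower and 2 were not called, with list sums of 172 to 334 in normal lung and 318 to 2293 in tumors. In whole tissue, fewer cells of a type and less RNA per cell cannot be told apart, and the part of these marker shifts in the member values below was not tested.

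All 10 members rose in the tumors, and for each of them every tumor lay above every normal lung. Of 23674 genes tested over the whole table, 31.4% were called higher and 30.1% lower (adjusted p under 0.05, limma), and 20.1% had every tumor above every normal lung. The members' log2 fold changes ran from 3.23 for Cpe to 12.02 for Chga with a median of 8.70, against a median of 0.04 over all tested genes, and 7 of the 10 were among the 100 largest increases of the table. All 10 passed the filter on low values, and all 10 were called higher under each of the 23 other settings of the fit. The members took 0.00320% to 0.00487% of all normalized counts in normal lung and 0.216% to 0.694% in tumors.

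**Figure D1:**
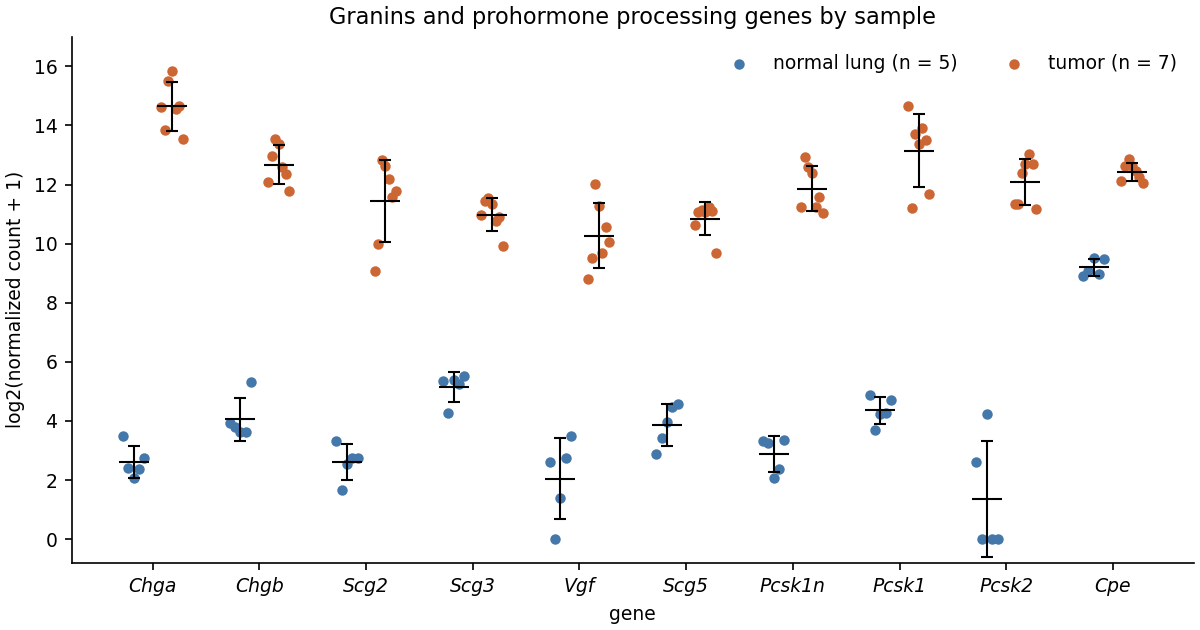
Level of each of the 10 members as log2(normalized count + 1), with a point per sample for the 5 normal lungs (blue) and the 7 tumors (orange), a horizontal line at the group mean and bars of 1 SD. For every gene all tumors sit above all normal lungs, with the widest gap for Chga and the narrowest for Cpe, the only member with normalized counts of 481 or more in each normal lung.

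Among the granins, Chga was the member with the largest difference. Normalized counts were 10.3, 4.30, 3.23, 4.23 and 5.75 in normal lungs 1 to 5, which together rest on 22 reads, and the tumors ranged from 11821 (tumor 7) through a median of 25012 to 58490 (tumor 4). The normal lungs were all near the level of 3 reads, 2 of them at or below it, and the lowest tumor was 1146 times the highest normal lung. Means were 5.57 ± 2.80 (SD, n = 5) and 29551 ± 17029 (SD, n = 7), which is a 5310-fold difference, and the fitted difference was 12.02 on the log2(value + 1) scale (SE 0.38, adjusted p = 8.65e-11, limma). This was the second largest log2 fold change in the table.

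Chgb, which encodes the related granule protein chromogranin B, had normalized counts of 14.2, 12.9, 11.3, 11.3 and 39.1 in the normal lungs. In the tumors it ranged from 3500 (tumor 7) through a median of 6246 to 11850 (tumor 3). Normal lung 5 stood apart from the other normal lungs, and the lowest tumor was 89.5 times its value. Means of 17.8 ± 11.99 (SD, n = 5) and 7115 ± 3204 (SD, n = 7) gave a log2 difference of 8.61 (SE 0.36, adjusted p = 8.94e-10, limma).

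Scg2 encodes secretogranin II, the precursor of the peptide secretoneurin. Its normal lung values were 9.03, 2.15, 4.85, 5.64 and 5.75, and its tumor values ran from 543 (tumor 1) through a median of 3497 to 7204 (tumor 3). No other member spread so widely over the tumors: tumors 1 and 2 were the low ones, the highest was 13.3 times the lowest, and the SD on the log2 scale was 1.39, against a median of 0.63 over all tested genes. Tumors exceeded normal lung by a log2 difference of 8.84 (SE 0.59, adjusted p = 3.83e-08, limma).

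Scg3 encodes secretogranin III, which tethers granins to the cholesterol-rich granule membrane and binds carboxypeptidase E. It was read at 40.0, 18.3, 40.4, 36.7 and 44.8 in the normal lungs, a measurable level in each, and at 968 (tumor 7) through a median of 2004 to 3005 (tumor 3) in the tumors. Normal lung 2 was the low sample of its group, and the lowest tumor was 21.6 times the highest normal lung. The log2 fold change, 5.83 (SE 0.29, adjusted p = 3.45e-09, limma), was the smallest of the granins.

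Vgf, a granin-like precursor of several neuropeptides whose gene was found as a target of nerve growth factor, was at 5.16, 0, 1.62, 5.64 and 10.3 in the normal lungs and at 449 (tumor 1), a median of 1052 and 4136 (tumor 3) in the tumors. Normal lungs 2 and 3 were at or below 3 reads, and tumors 3 and 4 were the high ones. Its log2 fold change was 8.22 (SE 0.63, adjusted p = 1.43e-07, limma), and 9.11 with a pseudocount of 0.1 in place of 1.

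Both helper genes of the convertases rose as well. Scg5 was at 6.45, 9.68, 14.5, 21.2 and 23.0 in the normal lungs and at 823 (tumor 7), a median of 2162 and 2398 (tumor 5) in the tumors. Tumor 7 lay below the other tumors, which ran only from 1592 to 2398, and still at 35.8 times the highest normal lung. A log2 fold change of 6.98 was fitted (SE 0.34, adjusted p = 2.31e-09, limma).

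Pcsk1n was at 9.03, 8.60, 3.23, 4.23 and 9.20 in the normal lungs and ran from 2076 (tumor 7) through a median of 3063 to 7823 (tumor 2) in the tumors. Tumors 2, 3 and 4 were the high ones, at 5422 to 7823, and the other 4 tumors lay between 2076 and 3063. A log2 difference of 8.98 was fitted (SE 0.38, adjusted p = 8.94e-10, limma). Pcsk1n overlaps Eras on the opposite strand in the annotation used, and whether counting kept the strands apart is not given in the sources used here.

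The convertase genes differed in how they spread over the tumors. Pcsk1 was at 28.4, 11.8, 17.8, 18.3 and 25.3 in the normal lungs and ranged from 2363 (tumor 2) through a median of 11731 to 25899 (tumor 1), with tumor 7 also low at 3260. All normal lungs held reads well above the floor, and the highest tumor was 11.0 times the lowest. The log2 fold change was 8.79 (SE 0.52, adjusted p = 1.22e-08, limma).

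Pcsk2 was at 5.16, 0, 17.8, 0 and 0 in the normal lungs, 15 reads in all, and ranged from 2310 (tumor 7) through a median of 5369 to 8398 (tumor 5) in the tumors. The tumors fell into those at 2310 to 2598 (tumors 1, 2 and 7) and those at 5369 to 8398 (tumors 3 to 6). The log2 fold change was 10.72 (SE 0.71, adjusted p = 3.40e-08, limma). With 3 normal lungs at 0 this value depends on the pseudocount, and with 0.1 it was 12.77. Pcsk2 overlaps the opposite-strand gene Pcsk2os1.

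Cpe, whose product also acts as a sorting receptor for some prohormones and is made in many tissues, was the one member with a substantial level in normal lung. Its normal lung values were 481, 542, 735, 499 and 715, resting on 2308 reads, and its tumor values ran from 4241 (tumor 7) through a median of 5606 to 7397 (tumor 3). It varied least of the members among tumors, with the highest 1.74 times the lowest and an SD of 0.30 on the log2 scale. Means of 594 ± 121 (SD, n = 5) and 5604 ± 1157 (SD, n = 7) gave a 9.43-fold difference, and the fitted log2 difference was 3.23 (SE 0.17, adjusted p = 5.72e-09, limma).

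Divided by exon length, so that genes can be set against each other, the members can be placed by level in each group. In normal lung the level per kilobase of exon was highest for Cpe, at 228 ± 46.5 (SD, n = 5), which was 17.3 times that of Scg3 (13.2 ± 3.78), and Chga was at 2.02, where its order against Scg2 and Vgf was not resolved (Chga was above Vgf in 3 of 5 normal lungs and Scg2 above Chga in 3 of 5). In tumors the highest level per kilobase was that of Chga, at 10722 ± 6179 (SD, n = 7), above Chgb (2597 ± 1169) in 7 of 7 tumors. Cpe (2148 ± 443), Pcsk1 (2099 ± 1414), Pcsk1n (1912 ± 1025) and Scg2 (1498 ± 999.5) followed, and each was above the next in only 3 or 4 of the 7 tumors, so their order was not resolved. Scg5 (1235 ± 352) was above Scg3 (781 ± 259) in 7 of 7 tumors, and Pcsk2 (621 ± 307) and Vgf (536 ± 439) came last. Of the summed level per kilobase of the 5 granins, Chga made up 53.7% to 77.3% in the tumors and 5.21% to 13.0% in the normal lungs.

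Among the tumors, the members did not follow a single order. Tumor 3 was highest for 5 members (Chgb, Scg2, Scg3, Vgf and Cpe) and tumor 5 for 2 (Scg5 and Pcsk2), while tumor 7 was lowest for 7 and above the tumor median for 0. Tumor 7 was also the tumor with the lowest neuroendocrine and the highest heart, fibroblast, endothelial, mesothelial and leukocyte marker sums given above. Tumor 1 departed from the others in both directions: relative to the tumor mean on the log2 scale its Pcsk1 stood at 1.52, while its Scg2 stood at -2.35 and its Vgf at -1.45. Tumor 2 had the reverse for Pcsk1 and its inhibitor gene, with Pcsk1 at -1.94 and Pcsk1n at 1.07 (-0.60 in tumor 1). Chgb, Scg3, Scg5 and Cpe were likewise below the mean in tumor 1 and above it in tumor 2, by smaller amounts. Chga, Scg2, Vgf and Pcsk2 were below it in both, with Pcsk2 at -0.75 in tumor 1 and -0.76 in tumor 2. Pairs of tumors that share a title number had a smaller median gap on the log2 scale than other pairs in 9 of the 10 members. The exception was Scg5 (0.77 and 0.43). For Scg2 the gap was 0.30 in 4 such pairs and 1.78 in the 17 others, and for Pcsk1n 0.28 and 1.16. The gaps were closer for Scg3 (0.53 and 0.58), Pcsk2 (0.93 and 1.06) and Pcsk1 (1.11 and 1.30). Such pairs come only from the numbers 159 and 201, and the share of all genes with a smaller gap in them was not computed. The 9 of 10 is therefore not read as particular to the members. The 2 tumors titled trachea lay below all 4 titled lung for Chgb, Scg5, Pcsk2 and Cpe, and the values overlapped for the other members. This comparison was untested, and tumor 7 is one of the 2. The share of all genes that separate in this way was not computed, so the count is not read as particular to the members.

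**Figure D2:**
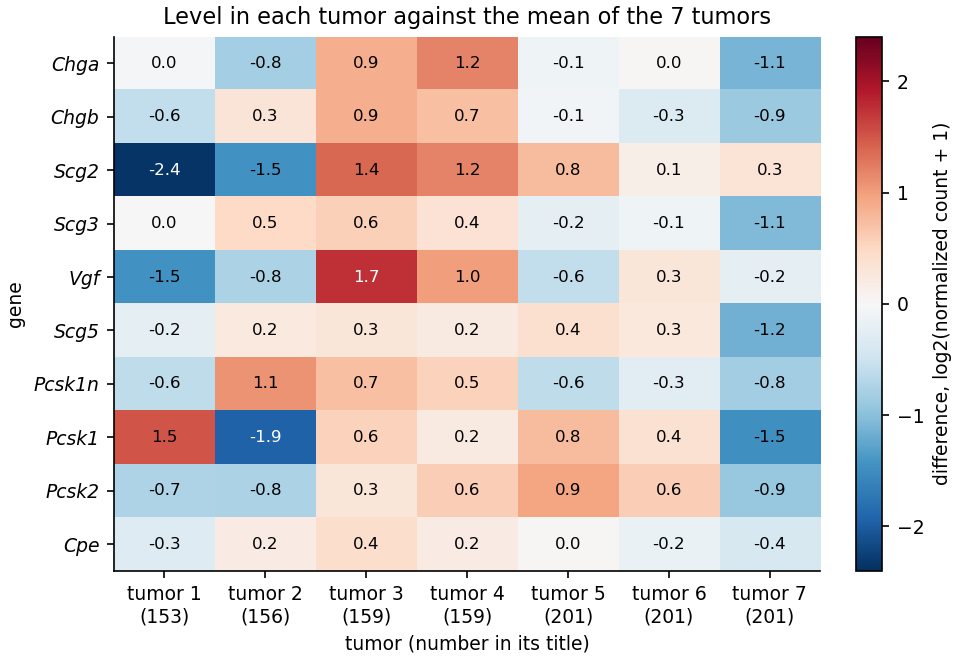
Difference of each tumor from the mean of the 7 tumors on the log2(normalized count + 1) scale, by member (rows) and tumor (columns), as a colour map with the value in each cell. Tumor 3 is at or above 0.28 for every member and tumor 7 is below 0 for all but Scg2, whereas tumor 1 combines the highest Pcsk1 with the lowest Scg2 and Vgf.

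Ratios of functional partners were compared within samples, where scaling between samples cancels apart from the 1 added to each count. The log2 ratio of Scg5 to Pcsk2 was -1.24 ± 0.56 (SD, n = 7) in tumors and 2.49 ± 2.33 (SD, n = 5) in normal lung, a difference of -3.74 (exact two-sided permutation test over 792 splits, p = 0.00505, adjusted over 3 ratios 0.0152). Tumor values ran from -1.81 to -0.25 and normal lung values from -0.27 to 4.58, so the groups touched at normal lung 3, and the normal values rest on the few Pcsk2 reads. With 3 normal lungs at 0 for Pcsk2, the size of this difference is set by the 1 added to each count: it was -5.69 with 0.1 added (adjusted exact permutation p = 0.0152) and -2.10 with 10 added (adjusted exact permutation p = 0.00758). When tumors that share a title number were averaged, the difference was -3.51 with an adjusted exact permutation p of 0.0952.

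The Pcsk2 to Pcsk1 ratio was -1.05 ± 1.09 in tumors and -2.98 ± 1.91 in normal lung. The difference of 1.93 did not pass (exact permutation p = 0.0505, adjusted 0.0758), although it did without normal lung 3 (2.68, adjusted exact p = 0.0182) or without tumor 1 (2.31, adjusted exact p = 0.0390). It too depended on the added count, at 3.92 with 0.1 and 0.11 with 10, and passed with neither (adjusted exact permutation p = 0.0530 and 0.856). Per kilobase of exon, Pcsk1 exceeded Pcsk2 in all 7 tumors, from 1.29 times in tumor 2 to 14.1 times in tumor 1. Without division by length, Pcsk2 was 1.09 times Pcsk1 in tumor 2 and below it in the other tumors. The inhibitor ratio, Pcsk1n to Pcsk1, was -1.29 ± 1.65 in tumors and -1.47 ± 0.66 in normal lung (difference 0.19, exact permutation p = 0.856, and -0.45 with 10 added). It spread widely over the tumors, from -3.40 in tumor 1 to 1.73 in tumor 2.

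**Figure D3:**
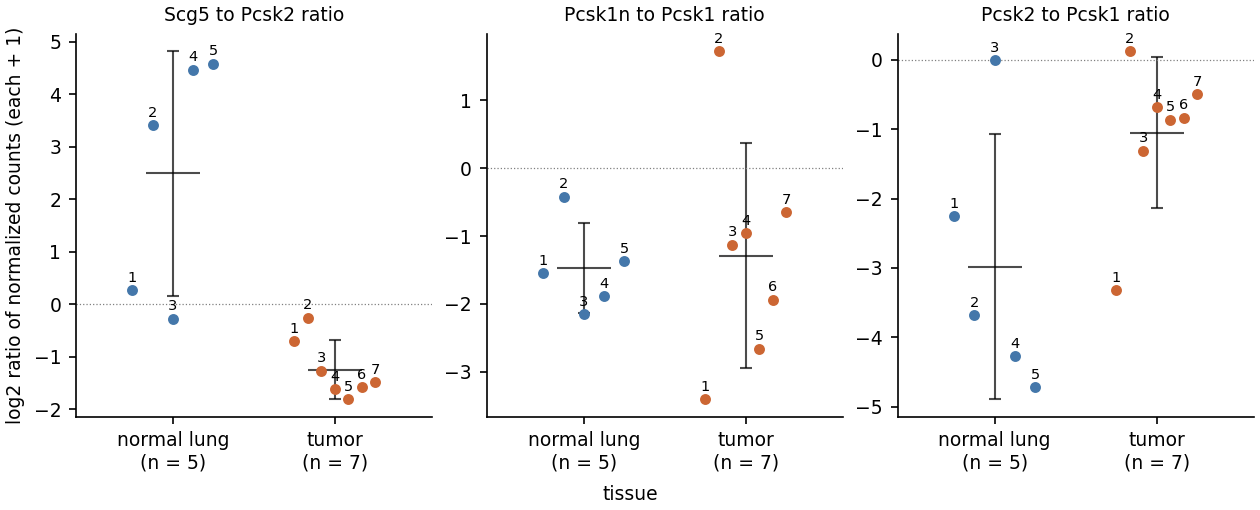
Log2 ratios of Scg5 to Pcsk2, Pcsk1n to Pcsk1 and Pcsk2 to Pcsk1, each count plus 1, with a numbered point per sample, a horizontal line at the group mean and bars of 1 SD. The tumors lie between -1.81 and -0.25 for Scg5 to Pcsk2 and spread from -3.40 to 1.73 for Pcsk1n to Pcsk1, where the groups overlap.

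The other genes of the prohormone pathway are given by list, to be read against the 31.4% of all tested genes called higher and the 30.1% called lower. Of 7 other proprotein convertases, which process proteins in most cells, 2 rose (28.6%), 2 fell (28.6%) and 3 were not called (median log2 fold change 0.27), shares near those of all genes. Pcsk6 rose from 119 ± 31.6 to 383 ± 173 (log2 fold change 1.57, adjusted p = 0.00132, limma). Furin, the convertase of the constitutive secretory route, fell from 3001 ± 460 to 1271 ± 484 (log2 fold change -1.31, adjusted p = 0.000309, limma) and Pcsk5 fell by 1.55. Pcsk4 (0.98), Pcsk7 (0.27) and Mbtps1 (0.19) did not pass, although Pcsk4 did without normal lung 5 (1.13) or without tumor 5 (1.14), tumor 6 (1.11) or tumor 7 (1.16). The number of convertases called higher was 4 by edgeR or DESeq2 on recovered reads and 5 with libraries scaled to equal totals.

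Of 13 genes listed under peptide trimming and end modification, not all of which encode enzymes that act on peptide ends, 2 rose (15.4%), 6 fell (46.2%) and 5 were not called (median -0.05). Cpm, a carboxypeptidase anchored to the cell surface, fell from 5649 ± 643 to 64.1 ± 23.3 (log2 fold change -6.54, adjusted p = 1.18e-09, limma), and the aminopeptidase Ctsh fell by 3.69. Qpct, which forms the pyroglutamate end of peptides, had a log2 fold change of 1.20 (adjusted p = 0.0212, limma) and Lvrn, an aminopeptidase, one of 1.15 (adjusted p = 0.0328, limma). The number called higher was 0 without normal lung 1 or without normal lung 2 (Qpct 1.10 and 1.11, Lvrn 1.09 in both cases) and 1 without normal lung 4 (Lvrn 0.86), tumor 2 (1.05), tumor 4 (1.04) or tumor 7 (1.05). Pam, the enzyme that amidates peptide hormones, chosen for mention after its values were seen, was at 4868 ± 353 in normal lung and 5309 ± 3199 in tumors (log2 fold change -0.05, adjusted p = 0.898, limma), with tumor 7 highest at 12133.

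Among 16 genes of dense-core granule biogenesis, 7 rose (43.8%), 3 fell (18.8%) and 6 were not called (median 0.34). The granule membrane proteins encoded by Ptprn and Ptprn2, both islet autoantigens, rose by 4.54 and 4.80, Ptprn from 143 ± 30.5 to 3504 ± 1413. Pick1 rose by 2.31 from levels at or under 3 reads in all 5 normal lungs to 8.35 ± 3.24 in tumors. Pick1 overlaps Gm49486 on the same strand in the annotation used, and the part of this overlap in its low counts was not tested. The sorting receptor genes Sorl1 and Sort1 fell by 3.87 and 1.87.

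Of 25 genes that dock and release granules, 18 rose (72.0%), 4 fell (16%) and 3 were not called (median 3.57). Among the 18, Syt4 had no read in any normal lung and passed the filter only through the tumors. Cadps, a priming factor for granule release, went from 1.87 ± 2.18 to 3841 ± 1416 (log2 fold change 10.68, adjusted p = 8.98e-10, limma), with every normal lung at or under 3 reads. Snap25, a SNARE of the plasma membrane, rose by 8.99 and the calcium sensor gene Syt1 by 8.78. Sytl4, which encodes granuphilin, fell by 3.68 and Syt10 fell by 3.32. Cadps2 (0.41), Syt5 (-0.53) and Rab27a (-0.35) were not called, though Cadps2 passed without tumor 3 (0.51) or tumor 7 (0.50).

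Of 26 prohormone and neuropeptide precursors listed, 23 were in the table and 19 passed the filter, of which 13 rose (68.4%), 4 fell (21.1%) and 2 were not called (median 1.69). Cck, Gast and Tac1, all among those that rose, had no read in any normal lung. They passed the filter only through the tumors and could not have been called lower. Gast was at or under 3 reads in 1 tumor and Tac1 in 3. The share called higher without such genes was not computed. Calca, the precursor of calcitonin and CGRP and a product of pulmonary neuroendocrine cells, went from 13.8 ± 4.80 to 12749 ± 13899 (log2 fold change 9.11, adjusted p = 5.44e-08, limma), with tumor 1 at 41863 and tumor 7 lowest at 2267. Cck had no read in any normal lung and ran from 47.7 to 453 in the tumors (adjusted p = 4.21e-08, limma). Pdyn, the dynorphin precursor, rose to 684 ± 576, though tumor 2 stayed at 3.57 (adjusted p = 0.000176, limma). Npw, the neuropeptide W precursor, fell from 380 ± 145 to at most 2.69 (adjusted p = 5.29e-09, limma), at or under 3 reads in every tumor. Vip fell from 6.57 ± 1.16 to 0.931 ± 1.11, both low values, with 6 tumors and 1 normal lung at or under 3 reads. Gal (-1.30, and -1.90 with a call without normal lung 3) and Crh (0.08) were not called, the latter near or below 3 reads throughout. With the level of Y-linked genes as a covariate, 8 in place of 13 were called higher.

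Of 14 transcription factors of neuroendocrine gene expression, 9 rose (64.3%), 2 fell (14.3%) and 3 were not called (median 4.19). Insm1, a zinc finger factor of neuroendocrine cells, went from 20.8 ± 9.42 to 12339 ± 6427 (log2 fold change 9.08, adjusted p = 4.14e-10, limma). Myt1 and Myt1l rose by 9.79 and 9.25. Rest, which encodes the repressor of neuronal genes in other cells, fell from 902 ± 174 to 156 ± 207 (log2 fold change -3.17, adjusted p = 0.000213, limma), with tumor 7 highest at 620 and the other tumors at 31.7 to 143. Crebl2 fell by 2.17. Of the CREB family genes, Creb1 (-0.16) and Crem (0.07) were not called, and Atf1, chosen for mention after its values were seen, rose from 579 ± 24.3 to 829 ± 156 (log2 fold change 0.50, adjusted p = 0.0102, limma). The early response gene Egr1 (-0.39) was not called.

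**Figure D4:**
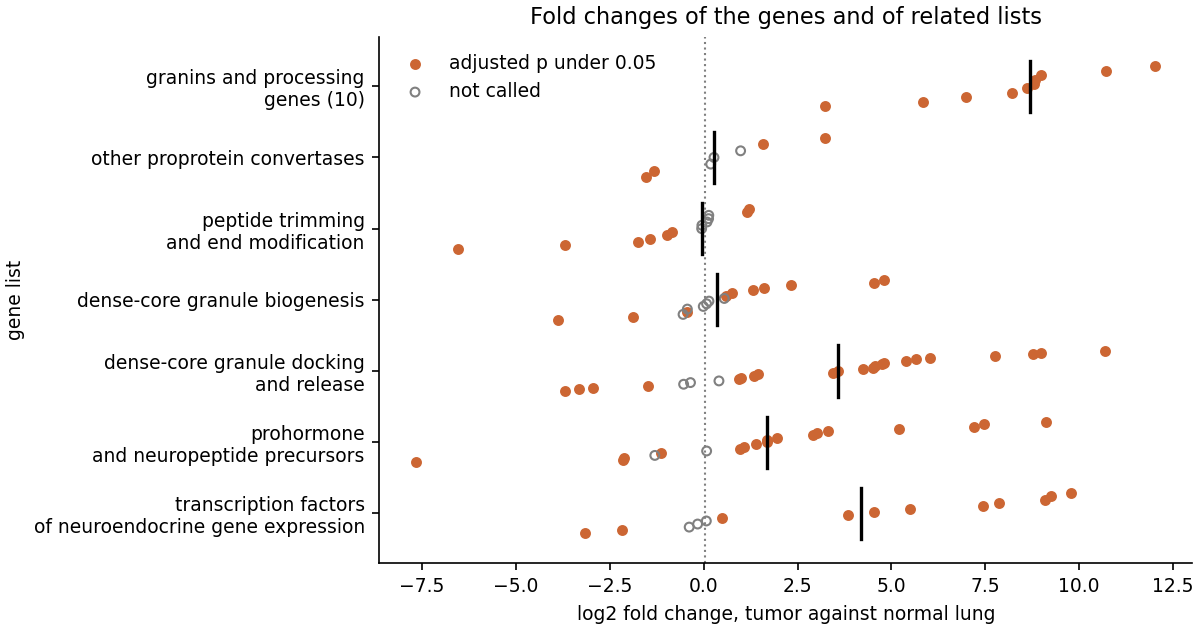
Log2 fold change of tumor against normal lung for each tested gene of the 10 members and of the 6 lists of pathway genes, with filled points for genes called at an adjusted p under 0.05, open points for genes not called and a vertical bar at each median. All 10 members lie between 3.23 and 12.02, whereas each of the lists holds genes on both sides of 0.

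The genes whose levels ran most like the mean of the members over the 7 tumors were found among 5474 tested genes with a mean log2 value of at least 6 and an SD of at least 0.5 in the tumors. Zcchc12 (Pearson r 0.99), Ajm1 (0.98), Agfg2 (0.98), Cacng2 (0.98) and Rassf10 (0.97) came first, a description over 7 points that carry only 4 title numbers. Cacng2, a subunit related to calcium channels and AMPA receptors, had no read in any normal lung and ran from 774 to 2021 in tumors. Rassf10 followed the members within the tumors but had a log2 fold change of 0.45 against normal lung (adjusted p = 0.457, limma) and overlapping groups, at 120 to 229 in normal lung and 88.6 to 636 in tumors.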

How the data were processed

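RNA sequencing values for 12 samples were taken from the deposited table. The authors deposited a normalized count signal per gene, a unit inferred from the numbers themselves. All values (100%) of each column were whole multiples of 1 step (tolerance 0.001), and size factors of 0.619 to 1.58 differed from a median of ratios by a relative 4.13e-10 at most. The submitters' processing notes name featureCounts, DESeq2 and GRCm39. The aligner, annotation and strand setting are not given in the sources used here. Symbols and exon lengths came from GENCODE M21 and covered 29982 of 30399 genes. Of 152 listed and member genes in the table, 35 overlap another gene, among them Furin, Pcsk6, Pcsk7, Pick1, Ptprn2 and Myt1l.

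Genes with a mean of 1 or more (23674) were log2(value + 1) transformed and compared by limma 3.58.1 (lmFit, eBayes with trend, R 4.3.3) and Benjamini-Hochberg adjustment over all of them, and called at an adjusted p under 0.05. The log2(value + 1) scale understates changes of low genes. A gene without reads in normal lung passed the filter only through the tumors, so it could be called only higher. In simulated data (23396 genes), 35 of 100 genes changed 2-fold and 100 of 100 changed 8-fold were recovered, and 11 of 146 calls were false. The simulation changed no other genes, gave every gene the same extra scatter and drew the samples independently. Far more genes were called in the data and some tumors share a title number, so these rates need not hold there. Ratios were compared by exact two-sided permutation over 792 splits, of which the smallest possible p is 0.00253. Whole reads were used with edgeR 4.0.16 and DESeq2 1.42.0 as alternatives in 11 samples. Tumor 3 was left out of these because its step, 0.991, is close to 1, although its values too were whole multiples of that step. Other alternatives were another pseudocount, another filter, other scaling, a Y-linked covariate, the title number as a block and leaving out samples. Of 31 same-group pairs none agreed as a repeated library would (chi-square divided by its degrees of freedom at least 18.4). Summaries and figures used scipy 1.17.1, pandas 2.3.3, numpy 2.4.6 and Python 3.11.15.

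Members and lists were chosen with earlier results of these data known. Named from each list were its 3 largest increases and 2 largest decreases among called genes, and its uncalled genes where there were 3 or fewer, and some genes that these rules name are not reported here. Floors of 3 reads cover counting error only.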

Additional observations from a re-analysis of the deposited data

Results flagged for a closer look

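A sample was looked at again where its gap to the nearest other sample of its group, as a share of the group's range, passed Dixon's 95% value. Of 26 such comparisons 4 passed, where chance gives about 1.3. Chgb in normal lung 5 was at 5.33 on the log2(value + 1) scale, above the 3.62 to 3.92 of the other normal lungs. Scg3 in normal lung 2 was at 4.27, below the 5.24 to 5.52 of the others. Scg5 in tumor 7 was at 9.69, below the 10.64 to 11.23 of the other tumors. The Pcsk2 to Pcsk1 log2 ratio of tumor 1 was -3.32, below the -1.31 to 0.13 of the other tumors.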

How the results depend on the processing

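The 10 members were called higher under all 23 alternatives, with Chga at 11.83 to 12.41, Pcsk2 at 9.34 to 12.77 and Vgf at 7.71 to 9.11. No called result given here reversed its direction under any of them. No paired analysis was possible because replicate numbers were given in order of listing and no title number is shared between the groups. Over all genes, 7430 higher and 7124 lower calls became 6384 and 4821 with edgeR (18308 genes tested), 7450 and 6023 with DESeq2, and 8617 and 6111 at equal totals, where the median of all genes moved by 0.19. Leaving out 1 sample gave 6829 to 7684 higher and 6526 to 7574 lower. Other proprotein convertases called higher numbered 4 with edgeR, 4 with DESeq2 and 5 at equal totals, against 2, and 2 to 3 with 1 sample left out. Genes of the peptide-trimming list called higher, 2 in the reported fit, numbered 0 with the Y-linked covariate and 1 with the title number as a correlated block (consensus correlation 0.304). They numbered 0 with tumors of 1 title number averaged, 1 without the trachea-titled tumors and 0 to 2 with 1 sample left out. Precursors called higher numbered 8 with the Y-linked covariate against 13, and precursors called lower 2 with edgeR, which tested 12, against 4. The Scg5 to Pcsk2 difference was -3.51 with title numbers averaged and -4.43 to -3.22 with 1 sample left out, Pcsk2 to Pcsk1 1.50 to 2.68, and Pcsk1n to Pcsk1 -0.31 to 0.54. With a pseudocount of 0.1 and of 10 they were -5.69 and -2.10, 3.92 and 0.11, and 0.33 and -0.45, in that order. Where a cause is not shown by fewer genes or samples, the cause was not tested. Normal lung values of 5 members rest on 28 reads or fewer, which limits their fold changes.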
